A study of Mus musculus with 10 samples.

Results

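A set of 10 genes of killer lymphocytes, of 18193 genes on the arrays, was followed in the hippocampus of mice with an axonal lesion: the granule proteases Gzma, Gzmb and Gzmk, the pore protein Prf1, the granule membrane protein Nkg7, the receptors Klrd1, Klrk1 and Ncr1, the death ligand Fasl and the chemokine Xcl1. They were found on the arrays by platform gene symbol, taking every probe set whose only symbol was 1 of the 10 genes. This gave 12 probe sets of the 45037 tested, with 2 each for Prf1 and Fasl and 1 for each of the other genes.

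Each of the 10 arrays held the whole hippocampi of 1 mouse, an adult SJL/J female obtained at 8 to 10 weeks of age and sampled 2 days after the lesion. In the TPlp+AxL group, 5 mice had first received T cells specific for proteolipid protein, a major protein of central myelin, by adoptive transfer. In the AxL group, 5 mice had the lesion alone. All 10 mice therefore carried the lesion, and the comparison asks what the transferred T cells add to it. Mice without a lesion, or with T cells alone, are not analysed here, and the labels give neither the dose of T cells nor the side of the hippocampi relative to the lesion. Nothing in the labels says that mice with the same number in the 2 groups belong together.

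Cytotoxic T cells and natural killer (NK) cells kill by releasing granules. Perforin opens the membrane of the target cell and granzymes, which are serine proteases, enter and start cell death. Activating and inhibiting surface receptors of the lectin-like and immunoglobulin families decide whether the granules are released, and Fas ligand offers a second route to death through the receptor Fas on the target. Several of these genes are shared between NK cells, CD8 T cells and activated CD4 T cells, so that no single one of them marks a cell type by itself.

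Granzyme B, Nkg7 and Klrd1 rose in TPlp+AxL hippocampi, by 1.30-fold to 1.44-fold. Klrk1 was 1.46-fold higher but did not pass the threshold, and the other members, apart from 1 of the 2 Fasl probe sets, had overlapping groups. In all, 3 of the 12 probe sets were higher and 0 were lower at an adjusted p under 0.05 by limma, where 0.646% of all 45037 probe sets were higher, 0.189% lower and 0.835% either. The values are log2 signals per probe set, and the adjusted p is a Benjamini-Hochberg value over all probe sets. At an unadjusted p under 0.05, 5 of the 12 were higher and 0 lower, where 6.54% of all probe sets were higher and 7.79% lower. The median log2 change was 0.08 over the 12 probe sets and -0.0034 over all probe sets. The 5 TPlp+AxL arrays lay above all 5 AxL arrays in 5 of the 12, and in 1.94% of all probe sets, while the groups were apart in either direction in 3.59%.

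**Figure D1:**
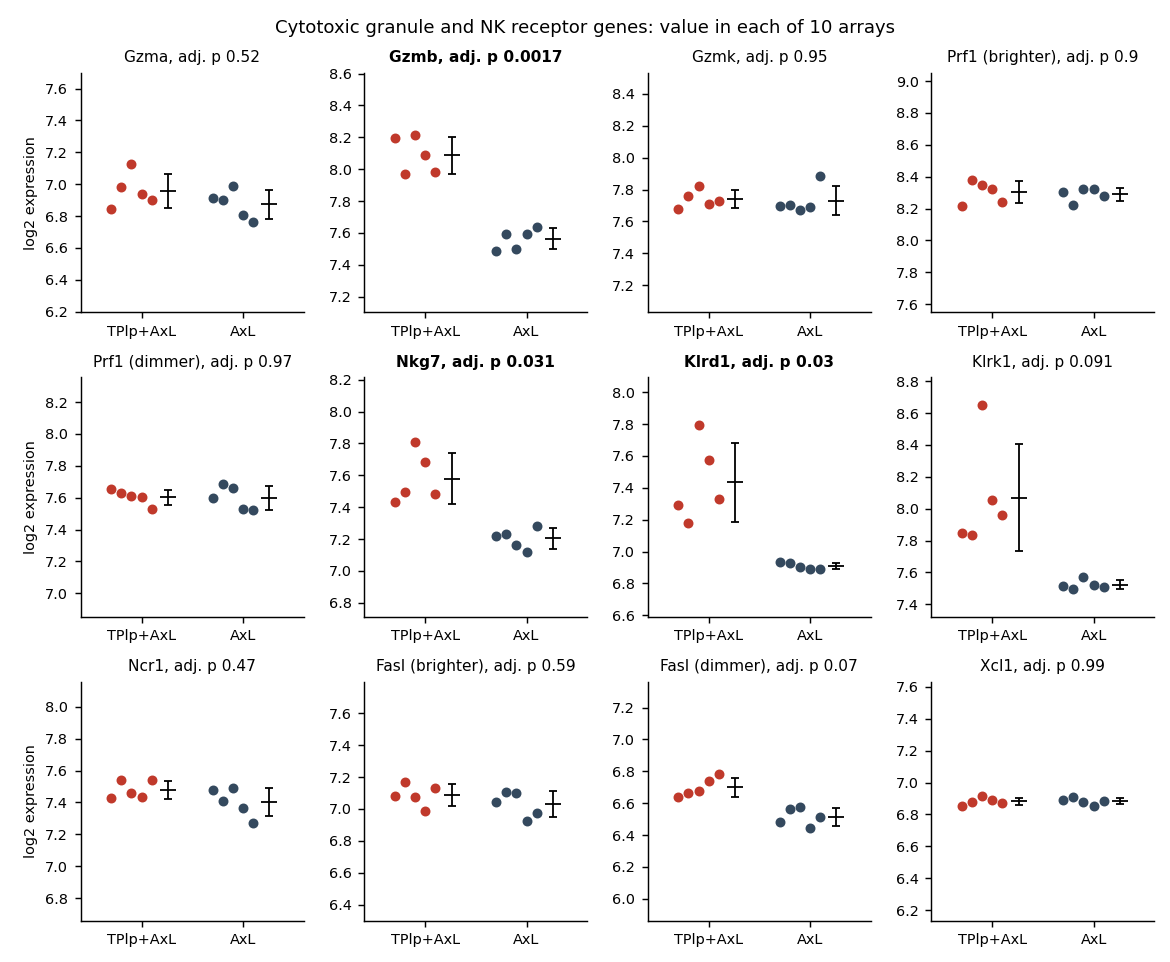
Log2 expression of the 12 probe sets (vertical axis, which spans the same log2 range in every panel) in each TPlp+AxL mouse (red, left) and each AxL mouse (dark blue-grey, right); points of a group run from mouse 1 to mouse 5, and the black bar is the mean with 1 SD (n = 5 each). The groups are apart for Gzmb, Nkg7, Klrd1, Klrk1 and the dimmer Fasl probe set, and bold titles mark the 3 genes with an adjusted p under 0.05.

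Gzmb, the granzyme that cleaves caspases and other proteins after aspartate residues, gave the clearest difference. Its log2 values were 8.19, 7.97, 8.21, 8.09 and 7.98 in TPlp+AxL mice 1 to 5, against 7.49, 7.60, 7.50, 7.59 and 7.64 in AxL mice 1 to 5. The lowest TPlp+AxL array stood above the highest AxL array, and the spread within each group was small. The means were 8.09 ± 0.12 in TPlp+AxL and 7.56 ± 0.07 in AxL (SD, n = 5 each), a log2 change of 0.52 (SE 0.06, 95% interval 0.40 to 0.65, limma adjusted p = 0.00171). Leaving out any 1 array kept the change between 0.49 and 0.56 and the limma adjusted p between 0.000664 and 0.00815. In a whole tissue, more cells that carry a transcript and more transcript per cell cannot be told apart, here or for any other gene described.

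Gzma, a granzyme that cleaves after basic residues, did not follow. It had 6.85, 6.98, 7.13, 6.94 and 6.90 in TPlp+AxL mice 1 to 5 and 6.91, 6.90, 6.99, 6.80 and 6.76 in AxL mice 1 to 5. The groups overlapped, with TPlp+AxL 3 alone above every AxL array. The log2 change was 0.09 (95% interval -0.04 to 0.21, limma adjusted p = 0.522). Gzmk, a related trypsin-like granzyme that lies next to Gzma among the protein-coding genes of chromosome 13, had 7.68, 7.76, 7.82, 7.71 and 7.73 in TPlp+AxL against 7.70, 7.71, 7.67, 7.69 and 7.89 in AxL. Its highest value was in an AxL mouse, and the log2 change was 0.0089 (95% interval -0.10 to 0.11, limma adjusted p = 0.945). The interval of Gzma leaves room for at most a 1.16-fold increase and that of Gzmk for at most 1.08-fold, on the scale of these probe sets. The Gzma probe set was dim, at percentile 15.9 of signal level, so a larger change of its transcript could be missed. Gzmk was at percentile 44.9.

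The sequences before the starts of these 3 granzyme genes and of Nkg7 are shown because Gzmb and Nkg7 rose while the others did not pass. Each is the run of 250 bases that ends at the base before the RefSeq start (build GRCm38.p6, 5′ to 3′ in the direction of the gene). Capitals mark matches on either strand to letters bound by factors of lymphocytes: GGTGTGA (T-box), TGTGGTT (Runx), TGANTCA (AP-1), TGACGT (the CRE core), AGGAAGT (ETS) and TTCNNNGAA (STAT). Gzmb is at chr14:56262335-56262584 on the minus strand, Nkg7 at chr7:43436888-43437137 on the plus strand, Gzma at chr13:113100982-113101231 and Gzmk at chr13:113180966-113181215, both on the minus strand.
Gzmb: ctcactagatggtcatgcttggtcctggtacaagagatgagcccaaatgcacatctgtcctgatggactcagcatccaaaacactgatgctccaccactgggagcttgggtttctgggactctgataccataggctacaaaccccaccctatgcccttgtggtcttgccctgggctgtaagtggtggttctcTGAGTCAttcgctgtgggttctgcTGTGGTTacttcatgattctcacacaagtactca
Nkg7: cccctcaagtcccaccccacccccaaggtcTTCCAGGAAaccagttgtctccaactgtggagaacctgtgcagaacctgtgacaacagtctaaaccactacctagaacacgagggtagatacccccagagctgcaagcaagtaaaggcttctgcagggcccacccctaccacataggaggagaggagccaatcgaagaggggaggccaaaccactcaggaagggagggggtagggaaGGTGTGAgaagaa
Gzma: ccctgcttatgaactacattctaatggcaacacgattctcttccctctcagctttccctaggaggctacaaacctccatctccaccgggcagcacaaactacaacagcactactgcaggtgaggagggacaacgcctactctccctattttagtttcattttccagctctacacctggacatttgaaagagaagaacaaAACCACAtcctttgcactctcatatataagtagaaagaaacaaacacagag
Gzmk: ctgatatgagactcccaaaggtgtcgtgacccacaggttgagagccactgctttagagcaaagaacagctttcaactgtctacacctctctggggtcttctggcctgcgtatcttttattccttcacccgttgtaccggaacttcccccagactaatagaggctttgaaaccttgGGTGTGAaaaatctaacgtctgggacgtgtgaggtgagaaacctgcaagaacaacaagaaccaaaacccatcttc

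The Gzmb sequence held an AP-1 match that begins 58 bases before the start and a Runx match that begins 34 bases before it. In Gzma the one match was Runx, 51 bases before the start, and in Gzmk it was T-box, 75 bases before the start. Nkg7 had a T-box match at 13 bases and a STAT match at 220 bases. RefSeq promoters were at hand for 9 of the 10 genes, all but Klrd1. The Runx letters stood in those of Gzma, Gzmb, Klrk1, Ncr1 and Xcl1 and in 4.4% of the 32851 promoters of the table. AP-1 letters stood in Gzmb among the members and in 6.75% of all promoters, and T-box letters in Gzmk, Nkg7 and Xcl1 and in 3.33%. The motifs were picked with the promoters and the results known, none of the matches overlapped another in the 4 sequences printed, and a match is a run of letters, not a measured binding site.

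Prf1 encodes perforin, without which granzymes do not reach the inside of a target. The brighter Prf1 probe set had 8.22, 8.38, 8.35, 8.32 and 8.24 in TPlp+AxL mice 1 to 5 and 8.30, 8.22, 8.32, 8.32 and 8.28 in AxL mice 1 to 5. The dimmer one ran from 7.53 to 7.65 in TPlp+AxL and from 7.52 to 7.69 in AxL. Both pairs of groups overlapped almost fully. The log2 changes were 0.01 (95% interval -0.08 to 0.10, limma adjusted p = 0.903) and 0.0040 (95% interval -0.09 to 0.10, limma adjusted p = 0.972), so each interval ends at a 1.07-fold increase. Of the 12 probe sets, the brighter Prf1 probe set was the only one above the median level of all probe sets, at the 60.5th percentile.

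Nkg7 encodes a protein of the granule membrane that takes part in granule release. It had 7.43, 7.50, 7.81, 7.68 and 7.48 in TPlp+AxL mice 1 to 5, against 7.22, 7.23, 7.17, 7.12 and 7.28 in AxL mice 1 to 5. Every TPlp+AxL array was above every AxL array, with mouse 3 and mouse 4 the highest. The means were 7.58 ± 0.16 in TPlp+AxL and 7.20 ± 0.06 in AxL (SD, n = 5 each), a log2 change of 0.38 (SE 0.07, 95% interval 0.22 to 0.53, limma adjusted p = 0.0306). The call was lost without TPlp+AxL 4 (limma adjusted p = 0.1005), TPlp+AxL 5 (0.0507), AxL 1 (0.0680), AxL 3 (0.0820), AxL 4 (0.0628) or AxL 5 (0.0611), while the change stayed between 0.32 and 0.41 over the 10 fits with 1 array left out.

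**Figure D2:**
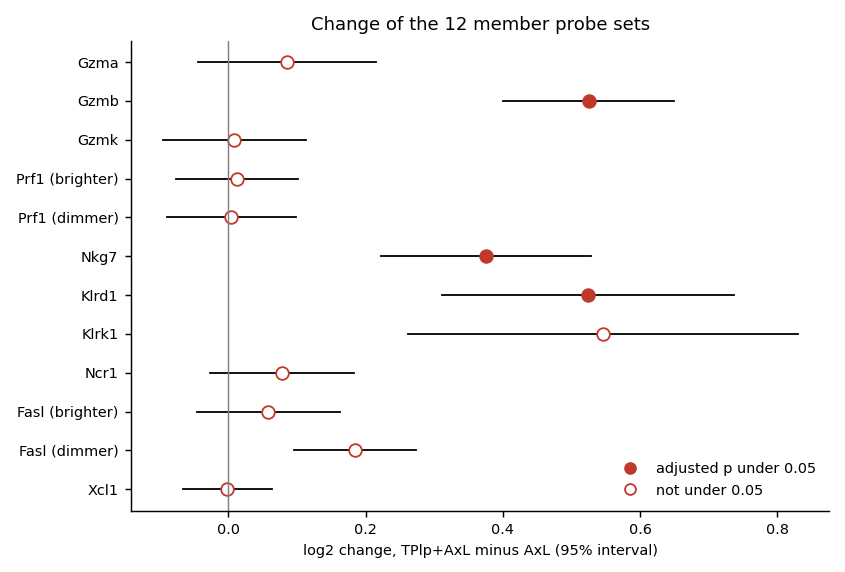
Log2 change of each member probe set, TPlp+AxL minus AxL, from limma over 10 arrays (horizontal axis), with 95% intervals as lines; filled points have an adjusted p under 0.05. Gzmb, Nkg7 and Klrd1 are filled at 0.52, 0.38 and 0.52, Klrk1 is open at 0.55 with the widest interval of the 12, and Gzmk, Prf1 and Xcl1 lie at 0.

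Klrd1 and Klrk1 are neighbours on chromosome 6, with no gene between them in the RefSeq table of GRCm38.p6. Klrd1 encodes CD94, which pairs with NKG2 chains into receptors for the nonclassical class I molecule Qa-1. Its log2 values were 7.29, 7.18, 7.79, 7.57 and 7.33 in TPlp+AxL mice 1 to 5, against 6.93, 6.93, 6.90, 6.89 and 6.89 in AxL mice 1 to 5. The AxL arrays lay within 0.04 of each other and the TPlp+AxL arrays within 0.61, with no overlap. The means were 7.43 ± 0.25 in TPlp+AxL and 6.91 ± 0.02 in AxL (SD, n = 5 each), a log2 change of 0.52 (SE 0.10, 95% interval 0.31 to 0.74, limma adjusted p = 0.0302). The call of Klrd1 was also lost without TPlp+AxL 4 (limma adjusted p = 0.0980), TPlp+AxL 5 (0.0584), AxL 1 (0.0657), AxL 3 (0.0759), AxL 4 (0.0571) or AxL 5 (0.0916). The change itself was 0.43 to 0.59 over the 10 fits.

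Klrk1 encodes NKG2D, the activating receptor for ligands that stressed, infected or transformed cells display. It had 7.85, 7.83, 8.65, 8.06 and 7.96 in TPlp+AxL mice 1 to 5, against 7.51, 7.50, 7.57, 7.52 and 7.51 in AxL mice 1 to 5. All 5 TPlp+AxL arrays were above all AxL arrays, but TPlp+AxL 3 stood far above the other four. The means were 8.07 ± 0.34 in TPlp+AxL and 7.52 ± 0.03 in AxL (SD, n = 5 each), a log2 change of 0.55 (SE 0.13, 95% interval 0.26 to 0.83, limma adjusted p = 0.0912). Without TPlp+AxL 3 the change was smaller, 0.40, and passed (limma adjusted p = 0.00706). The adjusted p was 0.0814 or more without any other single array.

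Ncr1 encodes NKp46, a receptor of NK cells and some innate lymphoid cells. It had 7.43, 7.54, 7.46, 7.43 and 7.54 in TPlp+AxL against 7.48, 7.41, 7.49, 7.36 and 7.27 in AxL, with overlapping groups. The log2 change was 0.08 (95% interval -0.03 to 0.18, limma adjusted p = 0.466). On the scale of this probe set, that leaves room for at most a 1.13-fold increase.

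Fasl, the membrane ligand that triggers death through Fas, was read by 2 probe sets, whose changes were not compared directly. The dimmer one, at the 7.90th percentile of signal level, had 6.64, 6.66, 6.68, 6.74 and 6.78 in TPlp+AxL mice 1 to 5, against 6.48, 6.56, 6.57, 6.44 and 6.51 in AxL mice 1 to 5. These groups did not overlap, and the log2 change was 0.18 (95% interval 0.10 to 0.27, limma adjusted p = 0.0700). The brighter one ran from 6.99 to 7.17 in TPlp+AxL and from 6.93 to 7.10 in AxL, a log2 change of 0.06 (95% interval -0.05 to 0.16, limma adjusted p = 0.587). Xcl1, a chemokine of activated lymphocytes that attracts dendritic cells through Xcr1, ran from 6.85 to 6.91 in TPlp+AxL and from 6.85 to 6.91 in AxL. Its log2 change was -0.0014 (95% interval -0.07 to 0.06, limma adjusted p = 0.987), the closest to 0 among the 12. The Xcl1 probe set was dim, at percentile 14.9 of signal level, so a change of its transcript could be missed.

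The members thus differed in size of change, and 9 pairs of probe sets were compared directly after the values had been seen. For each pair the within-array difference in log2 value was set against the groups in a permutation test, exact and two-sided, with 252 relabellings of the arrays and adjustment over the 9 pairs; the smallest p this test can give is 0.00794. The change of Gzmb exceeded that of Prf1 by 0.51 (95% interval 0.33 to 0.69), that of Gzma by 0.44 (0.23 to 0.65) and that of Gzmk by 0.52 (0.37 to 0.66), each with an exact permutation p of 0.00794 and an adjusted p of 0.0102. The change of Klrd1 exceeded that of Ncr1 by 0.45 (0.15 to 0.75), and that of Klrk1 exceeded it by 0.47 (0.09 to 0.84), with the same exact and adjusted p. Between the neighbours Klrd1 and Klrk1 the difference was -0.02 (95% interval -0.17 to 0.13, exact permutation p = 0.802, adjusted p = 0.802). Probe sets differ in how steeply they respond to their transcript, which these values cannot separate from unequal change of the transcripts. Since the pairs were picked for their values, the p-values overstate the evidence.

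The members' changes were also set beside that of Cd3g, a chain of the T cell receptor complex, which rose by 0.87 (SE 0.13, limma adjusted p = 0.0122). Cd3g had 7.48, 7.33, 8.06, 8.01 and 7.48 in TPlp+AxL mice 1 to 5, against 6.70, 6.94, 6.76, 6.88 and 6.74 in AxL mice 1 to 5. Minus the change of Cd3g, the change of Gzmb was -0.34 (95% interval -0.65 to -0.03, exact permutation adjusted p = 0.0268), that of Klrd1 -0.34 (-0.50 to -0.18, adjusted p = 0.0102) and that of Nkg7 -0.49 (-0.74 to -0.24, adjusted p = 0.0102). The adjusted p of the Gzmb difference was 0.0536 to 0.0893 without any 1 of the 5 AxL arrays. Cd3g had the largest change of the 10 T cell markers measured, whose median was 0.12. The other chains Cd3d and Cd3e had 0.63 and 0.12, and the members were not compared with these. The differences therefore hold against Cd3g only.

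Among the TPlp+AxL mice, the order of the arrays was the same for Klrd1, Klrk1 and Cd3g. TPlp+AxL 3 was the highest in each, followed by 4, 5, 1 and 2. For Nkg7 the order was 3, 4, 2, 5 and 1, and for Cd3d, another chain of that receptor complex, 3, 4, 1, 5 and 2. Xcl1 had the same order as Nkg7, though its log2 change was -0.0014 and its range among the 5 mice 0.06. Cd3e, a further chain of the complex, was lowest in TPlp+AxL 4, at 8.89. Gzmb put TPlp+AxL 1 second and had a range of 0.25 among the 5 mice, against 0.82 for Klrk1, 0.61 for Klrd1 and 0.38 for Nkg7. The mean of the T cell marker list was also highest in TPlp+AxL 3, at 8.38, and in TPlp+AxL 4, at 8.31. These orders describe 5 mice, and arrays share their normalization.

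**Figure D3:**
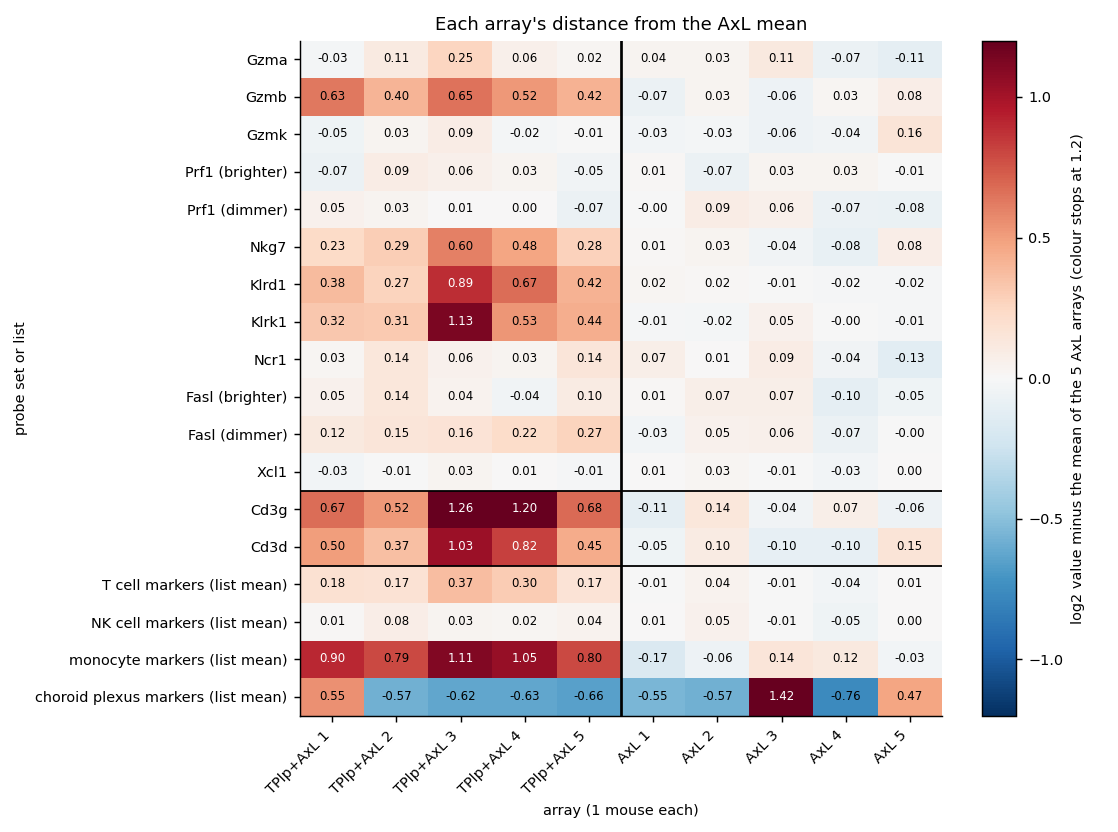
Log2 value of each array minus the mean of the 5 AxL arrays (colour and printed number), for the 12 member probe sets, Cd3g and Cd3d, and the means of 4 marker lists; columns are mice, TPlp+AxL left of the line and AxL right of it. TPlp+AxL 3 is darkest for Klrd1, Klrk1, Cd3g and Cd3d, the rows of Gzmk, Prf1, Ncr1 and Xcl1 stay pale throughout, and choroid plexus markers are high in TPlp+AxL 1, AxL 3 and AxL 5.

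By root mean square difference of centred log2 values over the 10 arrays, the genes most like Gzmb were Clec4e (0.08), Themis2 (0.08) and Itgal (0.09), with log2 changes of 0.40, 0.38 and 0.55. Those most like Nkg7 were Trav9d-3 (0.04), a T cell receptor alpha variable segment, and the lymphocyte GTPases Gimap7 (0.06) and Gimap4 (0.06), with log2 changes of 0.33, 0.42 and 0.39. Those most like Klrd1 were Cd86 (0.08), Trim30a (0.09) and Ifih1 (0.09), with log2 changes of 0.44, 0.52 and 0.46. Of these, Cd86 (limma adjusted p = 0.0687) and Ifih1 (0.0817) did not pass. The measure includes the difference between the groups, so it picks genes of similar change by construction.

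For other genes of the pathway the brightest of a gene's probe sets was used, a reading in which 0.978% of 18193 genes were higher, 0.28% lower and 1.26% either. At an unadjusted p under 0.05, 5.76% of these genes were higher and 12.1% lower, which is the background of the unadjusted counts given for the lists. Of 11 other granzymes and granule contents, 3 rose and 0 fell, with a median log2 change of -0.07, and 3 were higher and 4 lower at an unadjusted p under 0.05. The 3 were Srgn, the proteoglycan that packs granules in many leukocytes (0.78, limma adjusted p = 0.0106), Ctsc, the dipeptidase that activates granzymes and also works in myeloid cells (0.66, adjusted p = 0.0327), and Ctsw, a cathepsin of killer lymphocytes (0.30, adjusted p = 0.0291). This Ctsc probe set lost its call without any 1 of TPlp+AxL 1, 3, 4 and 5 and AxL 1, 2 and 5 (limma adjusted p up to 0.106). The dimmer Ctsc probe sets rose by 0.55 and 0.32 (limma adjusted p = 0.0161 and 0.0224), each with TPlp+AxL arrays above all AxL arrays. Ctsw lost its call without any 1 array other than TPlp+AxL 1 and AxL 2 (limma adjusted p up to 0.0974). None of Gzmc, Gzmd, Gzme, Gzmf, Gzmg, Gzmm and Gzmn passed, and all 7 had negative changes, down to -0.16 for Gzmf (adjusted p = 0.112). Apart from Gzmm, at percentile 52.6 of signal level, they were among the dimmest probe sets, at percentiles 0.17 to 6.33. Their small changes therefore do not show a fall of these transcripts. Of 8 genes of granule release 1 rose, the syntaxin Stx11 (0.27, limma adjusted p = 0.00961), with a list median of 0.05 and 2 higher and 0 lower at an unadjusted p under 0.05. The dimmer Stx11 probe set had 0.17 and did not pass (limma adjusted p = 0.173).

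Of 19 other NK receptors measured, 0 passed in limma, with a median of 0.03, while 2 were higher and 1 lower at an unadjusted p under 0.05. The smallest p were those of Fcgr3, an Fc receptor that microglia and macrophages also carry (0.53, limma adjusted p = 0.0516), and Cd160 (-0.15, adjusted p = 0.0721). Fcgr3 passed under several alternatives, among them those without TPlp+AxL 2 (0.0349), AxL 2 (0.0431) or AxL 4 (0.0369). Cd160 passed as lower after median subtraction (limma adjusted p = 0.0329), quantile normalization (0.0267) and cyclic loess normalization (0.0316). The 3 dimmer probe sets of Cd160 had changes of 0.03, 0.03 and -0.03. Klrd1's partner chains Klrc1 and Klrc2 had 0.05 and -0.04. Their probe sets were very dim, at percentiles 4.92 and 1.91 of signal level, so a change of these transcripts could be missed. Of 6 receptor adaptors and ligands, 0 passed, with 2 higher at an unadjusted p under 0.05. Hcst, the adaptor through which Klrk1 signals, had 0.17 (adjusted p = 0.188), and Fcer1g had 0.26 (adjusted p = 0.282).

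On the side of the target cell, 0 of 9 genes passed in limma, with a median of 0.07, and 2 were higher at an unadjusted p under 0.05. These were Serpinb9, the inhibitor of granzyme B (0.22, limma adjusted p = 0.302), and the initiator protease Casp8 (0.14, adjusted p = 0.333). Among 12 regulators and cytokines of the cytotoxic lineage 1 rose, the chemokine Ccl5 (0.88, limma adjusted p = 0.0126), with a median of 0.10 and 6 higher and 0 lower at an unadjusted p under 0.05. Ifng had 0.41 (adjusted p = 0.0706) and passed without TPlp+AxL 2 (0.000630). Eomes and Tbx21, the T-box factors of killer cells, had 0.09 and 0.05.

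**Figure D4:**
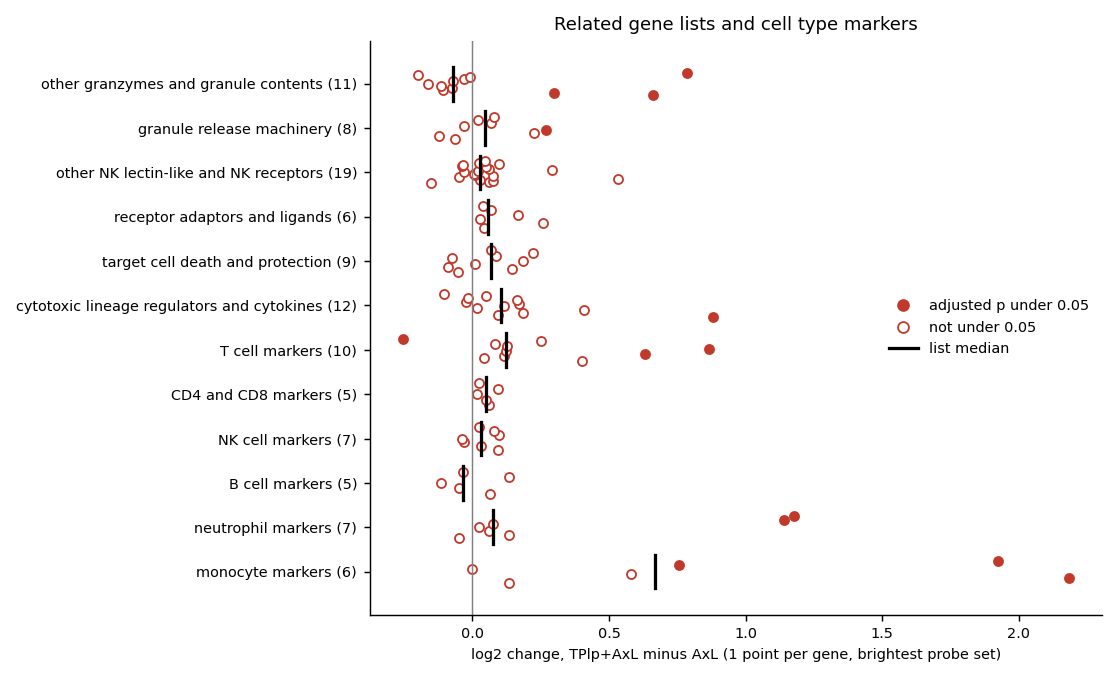
Log2 change, TPlp+AxL minus AxL, of every measured gene in 6 lists of the cytotoxic pathway and 6 lists of leukocyte markers (1 point per gene, brightest probe set; number of genes in brackets); filled points have an adjusted p under 0.05 and bars are list medians. Points past the threshold are few in the pathway lists, none lie among NK, CD4 and CD8 or B cell markers, and the largest changes are those of monocyte and neutrophil markers.

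Markers of the cells that could carry these transcripts moved unequally. Of 7 NK cell markers 0 passed in limma, 0 had an unadjusted p under 0.05, and the list mean ran from 6.958 to 7.024 in TPlp+AxL and from 6.895 to 6.998 in AxL. The 7 include the member Ncr1, while the listed Klrb1c and Klra4 were not measured. Ncr1 and Klre1 lay at percentiles 35.1 and 17.5 of signal level, and Klra8 and Klrc2 at 3.02 and 1.91. Klrd1 and Nkg7, which rose, were no brighter than Ncr1, at percentiles 24.8 and 33.1. A low level thus does not by itself exclude a measurable change. Even so, flat values of these markers do not show that NK cells were absent. Of 10 T cell markers 2 rose, Cd3g and Cd3d (0.63, limma adjusted p = 0.0302), and 1 fell, Thy1 (-0.25, adjusted p = 0.0408), which neurons also express, while 7 were higher and 1 lower at an unadjusted p under 0.05 and 5 had TPlp+AxL arrays above all AxL arrays. The T cell list mean ran from 8.17 to 8.38 in TPlp+AxL and from 7.97 to 8.05 in AxL. Without 1 array, Cd3d lost its call in 5 of the 10 fits (without TPlp+AxL 4 or AxL 1, 3, 4 or 5, up to 0.0977), and Thy1 in 8 (all but those without TPlp+AxL 1 and AxL 5, up to 0.133). After quantile and cyclic loess normalization Thy1 had -0.12 and -0.12 (limma adjusted p = 0.282 and 0.264). Cd3e had 0.12 (adjusted p = 0.255). Cd4, Cd8a and Cd8b1 had 0.06, 0.02 and 0.09, and 0 of the 5 CD4 and CD8 markers passed, with 1 higher at an unadjusted p under 0.05.

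Some markers of other leukocytes rose too. Of 6 monocyte markers 3 rose, Chil3 (2.18), Plac8 (1.92) and Ms4a4c (0.76), 5 were higher at an unadjusted p under 0.05, and the list mean ran from 9.57 to 9.89 in TPlp+AxL and from 8.61 to 8.93 in AxL. Of 7 neutrophil markers 2 rose, S100a9 (1.18) and S100a8 (1.14), and 3 were higher at an unadjusted p under 0.05, with list means of 8.14 to 8.29 in TPlp+AxL and 7.69 to 7.97 in AxL. Of 5 B cell markers 0 passed in limma and 1 was lower at an unadjusted p under 0.05, and Cd79b and Ms4a1 had -0.12 and 0.13. S100a9 lost its call without TPlp+AxL 4 (0.0599), S100a8 without TPlp+AxL 4 (0.0653) or AxL 1 (0.0525), and Ms4a4c without any 1 of TPlp+AxL 1, TPlp+AxL 4 and the 5 AxL arrays (0.0519 to 0.0963). These are values of the brightest probe sets. A dimmer probe set of Ms4a4c rose by 1.55, with TPlp+AxL arrays above all AxL arrays (limma adjusted p = 0.00808). What part monocytes and neutrophils have in the members' changes was not tested.

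Over all 45037 probe sets, 291 were higher and 85 lower, and the split was 269 and 210 with the arrays centred on their medians and 348 and 43 after cyclic loess normalization. Each of the 3 members that rose passed under all 3 rescalings. The 12 member probe sets had mean levels of 6.61 to 8.30, where all probe sets had median changes of 0.0093 (levels 6 to 7), 0.03 (7 to 8) and -0.0046 (8 to 9). The 11 hippocampus markers were bright, with a list mean of 10.9 to 11.1 in every array. Choroid plexus markers, of a tissue that adjoins the hippocampus, averaged 9.37 in TPlp+AxL 1, 10.2 in AxL 3 and 9.29 in AxL 5, against 8.06 to 8.27 in the other seven arrays. With the mean of that list as a covariate, Gzmb kept its call (log2 change 0.53, limma adjusted p = 0.00572), while Klrd1 (0.51, 0.0699) and Nkg7 (0.36, 0.0700) did not. With those 3 arrays left out together, limma called 0 of the 12 member probe sets and 1 of all probe sets, while 5 of the 12 were higher at an unadjusted p under 0.05, as were 5.12% of all probe sets. The changes were then 0.50 for Gzmb, 0.55 for Klrd1 and 0.43 for Nkg7.

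**Figure D5:**
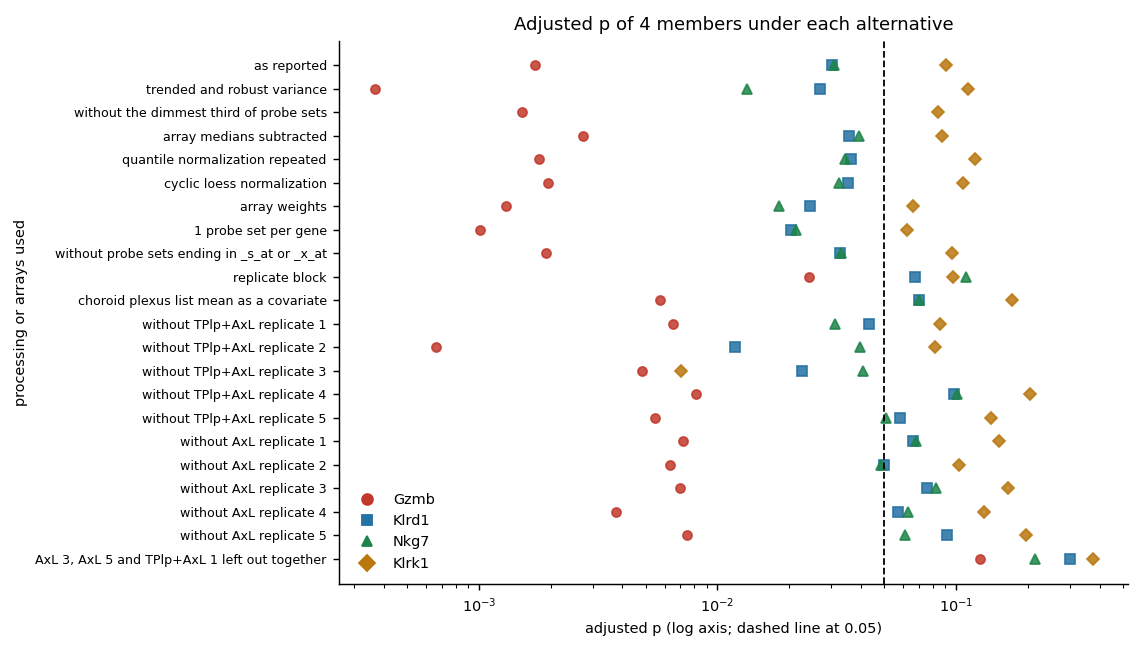
Limma adjusted p (horizontal log axis, dashed line at 0.05) of Gzmb, Klrd1, Nkg7 and Klrk1 as reported and under each alternative processing or choice of arrays (vertical axis); a missing point means that the probe set was not tested there. Gzmb lies left of the line except with 3 arrays left out together (0.125), Klrd1 and Nkg7 lie near it on both sides, and Klrk1 is left of it only without TPlp+AxL 3 (0.00706).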

How the data were processed

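Whole hippocampi of 10 mice were measured on Affymetrix arrays, 5 per group, with groups and replicate numbers taken from the labels. The authors deposited log2 values per probe set; RMA is the tool that the submitters' processing notes name, and its version is not given in the sources used here. RMA summarises probes and equalises arrays, which compresses small changes of dim probe sets. The scanner files are not used here, so no detection call stands behind a value, and the number of arrays limits the precision.

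From the 45101 probe sets, 64 controls were left out and no filter or further normalization was applied. Symbols came from the platform annotation; for the lists they were updated through Entrez identifiers with a RefSeq table (GRCm38.p6), which matched 34741 of 34945 probe sets with 1 symbol, while 932 had several and 9160 none. The comparison used limma 3.58.1 (R 4.3.3; lmFit, eBayes). P-values were adjusted by Benjamini and Hochberg's method over the 45037 probe sets, and the threshold was 0.05. "Rose" and "fell" are used of probe sets past it. Changes are TPlp+AxL minus AxL. The fit was tested on simulated data with independent noise in every probe set and array. Such data hold no tissue difference between arrays, such as that of the choroid plexus markers.

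The members and the 14 lists were chosen with earlier results of these data known. Named were all members, up to 4 genes past the threshold per list (or the 2 with the smallest p), Cd3e, Cd3d, Cd3g, Cd4, Cd8a and Ifng, and the 3 genes nearest to each member that passed. Gzmc to Gzmn, Klrc1, Klrc2 and Tbx21 were named after their values were seen. Each list mean is over its measured genes. Promoters are RefSeq's. The reported fit did not pair mice by replicate number. Deviations of same-numbered mice correlated at -0.13, 0.36, 0.27, -0.22 and -0.08 over probe sets, which does not settle whether they were paired.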

Additional observations from a re-analysis of the deposited data

Results flagged for a closer look

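In the groups of 5 arrays, 88 were examined for 1 array far from the others, and 6 held such an array by Dixon's ratio past its 95% critical value, where chance gives about 5%. Klrk1 in TPlp+AxL 3 was 8.65, with the next array at 8.06 and the lowest at 7.83. Gzmk in AxL 5 was 7.89, with the next at 7.71 and the lowest at 7.67. Serpinb9 in TPlp+AxL 2 was 8.69, below the next at 9.02 and the highest at 9.09. Cd3e in TPlp+AxL 4 was 8.89, below the next at 8.96 and the highest at 8.98. Cd79b in TPlp+AxL 1 was 7.04, with the next at 6.96 and the lowest at 6.94. Kl, a choroid plexus marker, was 8.72 in TPlp+AxL 1, with the next at 7.99 and the lowest at 7.80.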

How the results depend on the processing

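The number of member probe sets higher in TPlp+AxL, 3 as reported, was 1 (Gzmb) when the dimmest probe sets were left out, which removed Klrd1 and Nkg7 from the test, 1 with the replicate block, 1 with the choroid plexus covariate, 5 at an adjusted p under 0.10, 0 without TPlp+AxL 1, AxL 3 and AxL 5 (chosen after seeing the data), and 1 to 4 with 1 array left out; 0 were lower in every case. Over all probe sets, the counts higher and lower were 291 and 85 as reported, 465 and 288 with array weights, 490 and 267 at 0.10, 1 and 0 with those 3 arrays left out, and 159 to 387 and 26 to 187 with 1 array left out. The count lower was 210 after median subtraction, 43 after cyclic loess, 38 with the replicate block and 45 with the covariate. With the block, the limma adjusted p was 0.0242 for Gzmb, 0.0672 for Klrd1 and 0.110 for Nkg7. It was 0.0314 and 0.0325 for the dimmer Fasl probe set with a trended robust variance and with array weights.

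Changes near 0 turned sign without passing. Median subtraction, quantile and cyclic loess normalization gave Gzmk -0.019, -0.023 and -0.018 and the dimmer Prf1 -0.024, -0.030 and -0.025. Median subtraction gave the brighter Prf1 -0.015 and Cd8a -0.012, and quantile normalization gave Cd8a -0.00023. Xcl1 was 0.0023 with array weights. With the 3 arrays left out, Xcl1 was 0.0049, the dimmer Prf1 -0.013 and Tmem72 0.0073. With 1 array left out, Gzmk ran from -0.012 to 0.048, the brighter Prf1 from -0.0059 to 0.034, the dimmer from -0.015 to 0.026, Xcl1 from -0.0095 to 0.0059, Cd8a from -0.0090 to 0.044, and the Klrd1 minus Klrk1 difference from -0.0597 to 0.033. The other 8 pair differences kept their direction, and with the 3 arrays left out each had an adjusted p of 0.0643 (exact permutation p = 0.0286 or 0.0571). The cause was not tested.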
